A study of Mus musculus with 16 samples.

Results

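The genes described here are 41 genes of mitosis and of the passage from G2 into mitosis, taken as a fixed list of names: cyclins and mitotic kinases, the spindle checkpoint with the partners of the anaphase-promoting complex, kinetochore and chromosomal passenger proteins, mitotic motors and cytokinesis proteins, and the chromosome proteins Top2a and Mki67. Of these, 40 were measured by a probe set whose platform annotation named that gene and no other, through 88 probe sets in all, and each of the 40 was summarised by its brightest probe set on the 430 2.0 arrays. All 40 were among the 12610 genes that passed the filter on dim signals. Ccnb1 had no such probe set and was not analysed here.

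Signal was measured in mouse blastocysts, the stage at which an outer trophectoderm encloses the inner cell mass and a fluid-filled cavity. There were 4 groups of 3 samples. The controls are titled WT, and the labels name no treatment for them. Other blastocysts were given 20 µM SB203580, 25 µM SP600125 or 20 µM U0126. In that order, these are used as inhibitors of p38, of JNK and of MEK, which activates ERK. Replicate 1 of every group was read on a pair of 430A and 430B arrays after small-sample labelling, and replicates 2 and 3 on 430 2.0 arrays after two-cycle labelling, so values are compared only within a replicate 1 array or within the 430 2.0 arrays. The labels give no solvent for the controls, no strain, no length of treatment and no number of embryos pooled, and do not state whether replicates came from separate cultures. The p-values therefore cover only the spread among the arrays at hand, which may be technical.

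Entry into mitosis is driven by Cdk1 bound to A and B cyclins, which Wee1 holds back and Cdc25 phosphatases release. The spindle checkpoint then keeps the anaphase-promoting complex inactive until every kinetochore is attached to microtubules, after which that complex, with Cdc20, marks securin and cyclin B for destruction and sister chromatids part. Transcripts of many of these genes, though not of all, accumulate towards mitosis in dividing cells and are low in resting ones. In a whole blastocyst their level therefore depends both on the share of cells in G2 or mitosis and on the RNA per cell. Bulk arrays cannot tell these apart.

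Every array had a mean signal of 500 with 2% trimmed at each end, and the median signal on the 430 2.0 arrays was 61.1 to 68.9 in control, SB203580 and SP600125 samples and 77.7 and 83 in the U0126 samples. Pearson correlations of log2 signal ran from 0.93 to 0.96 between samples on the 430 2.0 arrays. Ratios of the actin 3' to 5' control probe sets, a measure of RNA integrity and labelling length, were 1.58 to 1.75 on the 430 2.0 arrays. On the 430A arrays they were 1.62 for U0126 against 2.47 to 3.66 for the other groups. The same ratio for Gapdh was less even on the 430 2.0 arrays, at 2.84 to 4.80, with the controls at 4.80 and 3.05. On the 430A arrays it was 2.61 for U0126 against 3.17 to 4.03 for the other groups. All 10 trophectoderm, all 8 inner cell mass and all 10 primitive endoderm markers on the lists used were above the filter. Of 8 measured cumulus and granulosa cell markers 1 was. Of 7 measured oviduct and uterine epithelium markers 3 were, and of 7 measured blood and immune markers 4 were.

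Promoters of several members share short sequences that are known from G2 and M phase genes. These are the cell cycle genes homology region, or CHR, with the letters TTTGAA, which the DREAM and MuvB complexes read, and the CCAAT box, which NF-Y binds. Both motifs were searched on either strand from 100 bases before to 50 bases after each RefSeq start on GRCm38.p6. Matches of the 2 motifs can share 1 base at their ends, and each was counted by its own letters. Of the 41 listed genes, 34 matched an entry in the promoter table. TTTGAA was present in 22 of these 34 (64.7%) against 9.23% of 27025 genes, CCAAT in 24 (70.6%) against 26.32%, and both in 19 (55.9%) against 2.22%. The windows below are of the members whose brightest probe set differed between inhibitor groups, as described further on. They lie on chromosomes 4 (Cdc20, minus strand), 5 (Cenpa, plus strand), 7 (Prc1, plus strand, the first of its listed starts), 15 (Racgap1, minus strand) and 6 (Mad2l1, plus strand). Capitals mark TTTGAA and, on either strand, the CCAAT box.
Cdc20 (chr4:118437294-118437443): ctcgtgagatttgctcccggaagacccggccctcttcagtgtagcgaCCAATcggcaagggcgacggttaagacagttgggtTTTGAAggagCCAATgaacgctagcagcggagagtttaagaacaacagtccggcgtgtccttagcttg
Cenpa (chr5:30666786-30666935): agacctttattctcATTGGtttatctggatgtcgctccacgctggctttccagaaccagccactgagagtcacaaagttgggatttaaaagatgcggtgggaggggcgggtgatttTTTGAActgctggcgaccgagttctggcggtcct
Prc1 (chr7:80294351-80294500): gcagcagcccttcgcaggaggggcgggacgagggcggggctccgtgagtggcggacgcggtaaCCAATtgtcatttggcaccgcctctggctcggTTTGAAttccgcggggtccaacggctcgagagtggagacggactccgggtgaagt
Racgap1 (chr15:99651607-99651756): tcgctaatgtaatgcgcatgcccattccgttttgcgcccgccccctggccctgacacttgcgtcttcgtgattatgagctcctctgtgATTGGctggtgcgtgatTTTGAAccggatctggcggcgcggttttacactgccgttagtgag
Mad2l1 (chr6:66535121-66535270): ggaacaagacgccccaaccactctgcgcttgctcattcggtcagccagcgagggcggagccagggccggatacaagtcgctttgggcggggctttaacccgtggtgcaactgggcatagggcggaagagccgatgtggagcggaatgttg
The first 4 hold both motifs, and neither set of letters is in the Mad2l1 window. By role, TTTGAA was found in 4 of 8 cyclins and kinases, 6 of 9 checkpoint genes, 4 of 6 kinetochore and passenger genes, 6 of 9 motor and cytokinesis genes and both chromosome genes with an entry. For the 22 measured members with TTTGAA and the 11 without it, the median log2 change against control was 0.09 and 0.11 under SB203580, 0.12 and 0.06 under SP600125 and -0.13 and -0.07 under U0126. The median difference from U0126 was 0.25 and 0.26 with SB203580 and 0.29 and 0.28 with SP600125.

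The first question was whether the p38, JNK or MEK inhibitor altered the mitotic genes of the blastocyst against the controls. No member passed the test under any of the inhibitors. Differences are given as log2(signal + 12.6) of the treated group minus control, with limma's standard error and n = 3 samples per group, and a call needs a Benjamini-Hochberg adjusted p under 0.05 over all probe sets tested. With limma, 0 of 40 members were called for SB203580, where 0.626% of all genes were, 0 of 40 for SP600125, where 0.896% were, and 0 of 40 for U0126, where 0.65% were.

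At an unadjusted p under 0.05, 5 members were higher and none lower under SB203580, beside 4.9% and 6.47% of all genes. Under SP600125, 4 were higher and none lower, beside 4.57% and 5.65%. Under U0126, 1 was higher and 9 were lower, beside 7.58% and 5.8%. The 95% intervals of the log2 change lay within 1 unit of 0, a 2-fold change, for all 40 members under SB203580 and SP600125 and for 39 under U0126. They lay within a 1.5-fold change for 35, 31 and 30 members in turn. For the rest the interval reached past 1.5-fold.

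Direction differed between the inhibitors without reaching a call. The median change over the 40 members was 0.10 for SB203580, 0.09 for SP600125 and -0.13 for U0126, beside 0.01, -0.00 and 0.05 over all genes. By sign, 29 members were above control under SB203580, 29 under SP600125 and 7 under U0126, beside 50.9%, 49.7% and 56.4% of all genes. These 3 comparisons share the control samples. The U0126 samples had the highest median signal on the 430B and 430 2.0 arrays, though not on the 430A arrays, and the members were also set beside the 3914 genes whose mean signal lay between the 10th and 90th percentiles of the members' own, a range chosen after the data were seen. Over these genes, which include 32 members, the median change was 0.01, -0.01 and -0.01, and 52.4% were below control under U0126. At an unadjusted p under 0.05, 10.1% of them were lower under U0126.

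Taken replicate by replicate, the members' median under U0126 was -0.06, -0.17 and -0.22 from the controls on the same array type. For SP600125 it was 0.15, 0.06 and 0.06. For SB203580 it was 0.19 in replicate 1, 0.09 in replicate 2 and -0.01 in replicate 3, so that the SB203580 replicates do not share a sign. Without control replicate 1 the medians were 0.030 for SB203580, with 27 members above control, and 0.023 for SP600125, with 23 above. On the 430 2.0 arrays alone they were 0.032 and 0.0093, with 25 and 21 members above control. Every sample of one group lay on one side of the other group within each array type for 9 members higher (12.7% of all genes) and none lower (13.8%) under SB203580. Under SP600125 it was so for 12 higher (12%) and none lower (13.1%), and under U0126 for 1 higher (14.4%) and 13 lower (10%). Among the genes as bright as the members, the share lower under U0126 by this measure was 15.1%.

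**Figure D1:**
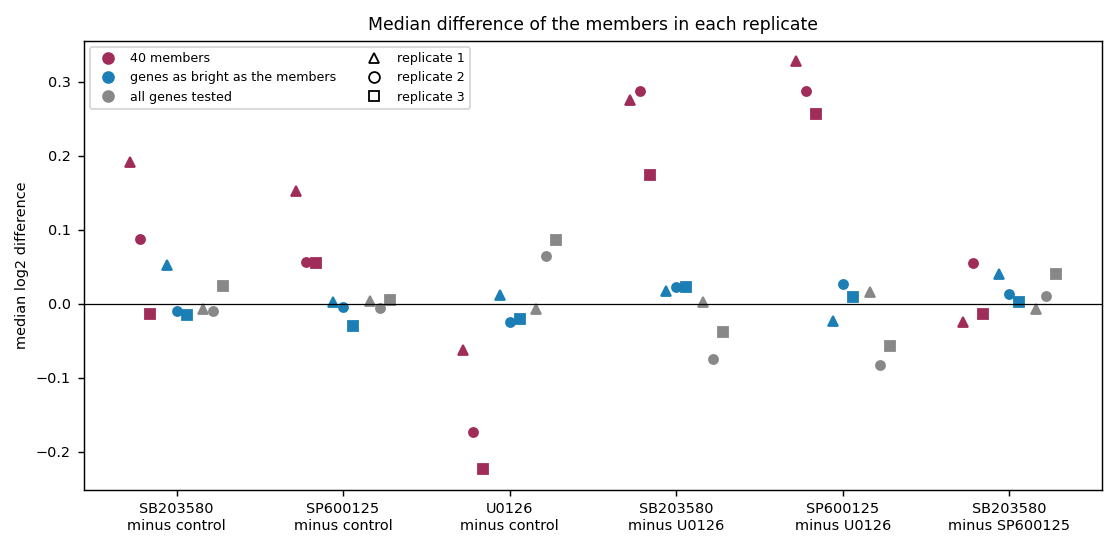
Median log2 difference (vertical axis) of the 40 members, of the 3914 genes as bright as the members and of all genes tested, for each of 6 comparisons. Triangles, circles and squares are replicates 1, 2 and 3, each taken within its array type. The members' medians are below 0 in all 3 replicates for U0126 against control and reach 0.26 to 0.33 for SP600125 against U0126, while the other gene sets stay between -0.08 and 0.09.

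Among the 10 cyclins, Cdk1 regulators and Polo and Aurora A kinases, the median change was 0.06 for SB203580, 0.03 for SP600125 and -0.10 for U0126. Ccna2, cyclin A, which partners Cdk2 in S phase and Cdk1 in G2, had the smallest adjusted p of any member against control. Its signal in replicates 1, 2 and 3 was 2335, 4751 and 5512 in controls and 1381, 3660 and 4018 under U0126. It was 1996, 4890 and 6053 under SB203580 and 2051, 4725 and 5632 under SP600125. All 3 U0126 samples were thus the lowest of their array type, and the other groups overlapped. The U0126 change was -0.53 ± 0.13 (SE, adjusted p = 0.082), and the second Ccna2 probe set gave -0.38. This comparison passes the threshold with the arrays centred on their median (-0.72, adjusted p = 0.010), as do those of Cdc20 and Kif2c, and over 22 alternative settings its adjusted p ran from 0.010 to 0.32.

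Plk4, the kinase that starts centriole duplication, read 706, 3506 and 2370 in controls and 706, 1923 and 1537 under U0126. The difference of -0.49 ± 0.18 (SE, adjusted p = 0.26) thus came from the 430 2.0 arrays. Its other probe sets gave -0.23 and -0.61, both uncalled. For the probe set at -0.23, the 430 2.0 samples overlapped, at 633 and 487 in controls and 372 and 565 under U0126. Cdc25c, a phosphatase that activates Cdk1, read 1543, 740 and 627 in controls and 2442, 835 and 840 under SB203580, each treated sample being the higher, at 0.41 ± 0.17 (SE, adjusted p = 0.44). Cdk1 itself read 2893, 5213 and 6056 in controls and 3222, 6554 and 6808 under SB203580, at 0.22 ± 0.12 (SE). None of these comparisons passed the test.

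Aurka, the centrosomal Aurora kinase, read 2232, 5822 and 6448 in controls and 2977, 6118 and 7228 under SP600125, and Ccnb2, the second B cyclin, read 1845, 5568 and 5645 in controls and 2542, 5887 and 5733 under SP600125. Their changes of 0.22 ± 0.12 and 0.19 ± 0.12 (SE) were within about 2 standard errors of 0. Wee1, Cdc25a, Cdc25b and Plk1, the Polo kinase of mitotic entry, had changes between -0.27 and 0.23 across the 3 inhibitors, and Plk1 was above control under each by 0.05 to 0.22.

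**Figure D2:**
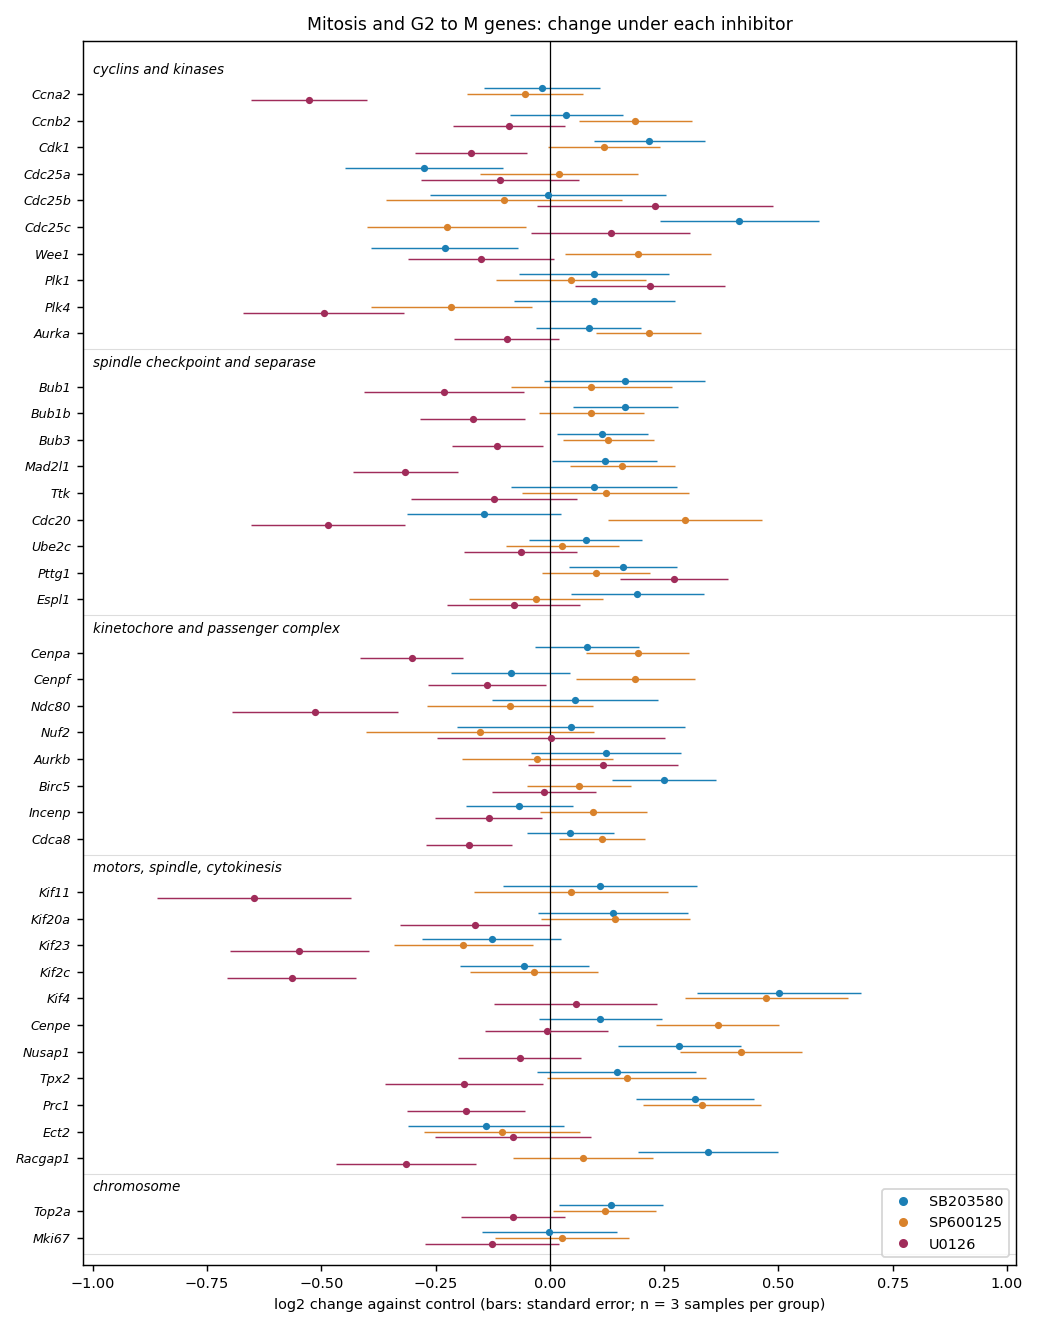
Log2 change of each of the 40 members against control (horizontal axis) for SB203580, SP600125 and U0126, grouped by role. Points are the fitted changes and bars their standard errors, with 3 samples per group. No point passes the adjusted test, 33 of the 40 U0126 points lie left of 0, and 29 of the points of each other inhibitor lie right of it.

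In the checkpoint group, 8 of 9 members were above control under SB203580, 8 under SP600125 and 1 under U0126, with medians of 0.12, 0.10 and -0.12. Cdc20, the activator that directs the anaphase-promoting complex to securin and cyclin B, read 5626, 17927 and 16831 in controls, 6761, 12807 and 14546 under SB203580, 7363, 19172 and 22270 under SP600125 and 3052, 13983 and 14473 under U0126. Each SP600125 sample was above and each U0126 sample below the controls of its array type. Against control the changes were 0.30 ± 0.17 for SP600125 and -0.49 ± 0.17 for U0126 (SE, adjusted p = 0.70 and 0.25).

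Mad2l1 encodes Mad2, which binds Cdc20 at unattached kinetochores. Its signal was 1739, 6388 and 6050 in controls, 1928, 7281 and 6160 under SB203580, 1931, 6995 and 6933 under SP600125 and 1371, 5694 and 4443 under U0126. As with Cdc20, Mad2l1 was above control with SP600125 and below it with U0126 on each array type, at 0.16 ± 0.11 and -0.32 ± 0.11 (SE, adjusted p = 0.81 and 0.27).

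Pttg1, or securin, the inhibitor of separase, ran the other way. It read 9217, 21837 and 20114 in controls and 10967, 26122 and 24830 under U0126, each treated sample being higher, at 0.27 ± 0.12 (SE, adjusted p = 0.37), and it was the member counted above as higher at an unadjusted p under 0.05. With SB203580 it read 12131, 23803 and 19596, which overlaps the controls. Its other probe sets under U0126 gave 0.50 and 0.84, also uncalled, and the mean of its 3 probe sets passes the threshold.

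Bub1b, the checkpoint protein BubR1, read 8762, 3181 and 2841 in controls and 11283, 3022 and 3276 under SB203580. The replicate 1 value of Bub1b is from the 430B array, on which the scaling gives other magnitudes. Bub1, Bub3, Ttk (the kinase Mps1), Ube2c (the ubiquitin-conjugating enzyme of the anaphase-promoting complex) and Espl1 (separase) had changes between -0.23 and 0.19 across the 3 inhibitors, each within 2 standard errors of 0.

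Kinetochore and passenger members had medians of 0.05, 0.08 and -0.14 for SB203580, SP600125 and U0126. Cenpa, the histone H3 variant that marks centromeres, read 2178, 5691 and 6568 in controls, 2475, 5954 and 6552 under SB203580, 2943, 6485 and 6368 under SP600125 and 1847, 4532 and 5175 under U0126. The U0126 samples were the lowest on either array type, at -0.30 ± 0.11 against control (SE, adjusted p = 0.29). Over 22 alternative settings this Cenpa change ran from -0.49 to -0.044 (limma adjusted p from 0.067 to 0.96). Ndc80, which couples kinetochores to microtubules, read 481, 1073 and 920 in controls and 315, 730 and 693 under U0126, at -0.51 ± 0.18 (SE, adjusted p = 0.26), again without overlap.

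Cenpf, a large coiled-coil protein of the outer kinetochore, read 2184, 2378 and 2229 in controls and 2287, 2774 and 2698 under SP600125. Birc5, the passenger protein survivin, read 2473, 6859 and 8000 in controls and 3044, 8603 and 8707 under SB203580, at 0.25 ± 0.11 (SE, adjusted p = 0.51). Aurkb, the kinase of the passenger complex, read 562, 1105 and 990 in controls and 757, 1053 and 1000 under SB203580, where replicate 1 alone was clearly higher. Its partners Incenp and Cdca8 and the Ndc80 partner Nuf2 had changes between -0.18 and 0.12.

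Motors, spindle and cytokinesis proteins had the largest medians of the member groups, at 0.14, 0.14 and -0.18, with 10 of 11 below control under U0126. In replicates 1, 2 and 3 the group median was 0.46, 0.15 and -0.07 with SB203580 and 0.53, 0.14 and -0.10 with SP600125. For these 2 inhibitors it was thus largest in replicate 1 and below 0 in replicate 3. With U0126 it was -0.07, -0.35 and -0.36. Kif2c, the kinesin that depolymerises microtubules at centromeres, read 1098, 2085 and 2434 in controls and 801, 1665 and 1277 under U0126, at -0.56 ± 0.14 (SE, adjusted p = 0.098). Kif23, the motor of the centralspindlin complex in cytokinesis, read 1657, 3508 and 2518 in controls and 1116, 2028 and 2054 under U0126, at -0.55 ± 0.15 (SE, adjusted p = 0.14). Both were lower in every U0126 sample on their array type. For Kif2c the mean of its probe sets gave 0.16, the other sign, and 1 of its dim probe sets gave 1.18. Over 22 alternative settings the Kif23 change ran from -0.74 to -0.13 (limma adjusted p from 0.064 to 0.84).

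Kif4, a chromosome-bound kinesin, read 397, 894 and 968 in controls, 732, 1187 and 1143 under SB203580 and 756, 1149 and 1080 under SP600125, both inhibitor groups lying above control without overlap. Its changes of 0.50 ± 0.18 and 0.47 ± 0.18 (SE, adjusted p = 0.33 and 0.42) were the largest member rises in both comparisons, and in replicate 1 they were 0.86 and 0.91. Nusap1, which bundles spindle microtubules, read 771, 1798 and 1862 in controls and 1136, 2409 and 2270 under SP600125, at 0.42 ± 0.13 (SE, adjusted p = 0.28). Cenpe, the kinetochore kinesin that carries chromosomes to the spindle equator, read 6070, 2835 and 2520 in controls and 8796, 3560 and 2978 under SP600125, at 0.37 ± 0.13 (SE, adjusted p = 0.39).

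Prc1, which cross-links microtubules at the spindle midzone, read 1425, 2733 and 2970 in controls, 1933, 3434 and 3385 under SB203580, 2170, 3520 and 3036 under SP600125 and 1307, 2229 and 2706 under U0126. Racgap1, the other centralspindlin subunit, read 601, 1462 and 1518 in controls, 932, 1822 and 1630 under SB203580, 732, 1638 and 1300 under SP600125 and 593, 1034 and 1124 under U0126. For both genes the SB203580 samples were above and the U0126 samples below the controls, though U0126 and control were nearly level for Racgap1 in replicate 1. Kif11, the motor that separates spindle poles, changed by -0.65 ± 0.21 (SE, adjusted p = 0.21) under U0126, Kif20a by -0.16 and Tpx2, which activates Aurora A, by -0.19. Ect2, the RhoA exchange factor of cytokinesis, had changes of -0.14, -0.10 and -0.08 under the 3 inhibitors.

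Among the chromosome proteins, Top2a, the topoisomerase that untangles sister chromatids, read 2351, 5473 and 5410 in controls and 2546, 6148 and 5872 under SB203580. With SP600125 it read 2859, 5702 and 5486, and with U0126 2699, 4638 and 4710, the U0126 samples being above control on the 430A array and below it on the 430 2.0 arrays. Mki67, the proliferation antigen Ki-67, read 1623, 6962 and 4836 in controls, 1802, 5851 and 5171 under SB203580, 1810, 5824 and 5486 under SP600125 and 2003, 4644 and 4516 under U0126. The control samples of replicates 2 and 3 bracketed both SB203580 and SP600125, and Mki67 changes were -0.00, 0.03 and -0.13.

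The second question was whether the inhibitors differed from each other. A few members were called, in each case with lower signal under U0126. SP600125 was above U0126 for 4 of 40 members on their brightest probe set, where 4% of all genes were called in either direction and 1.92% as higher. Of the genes as bright as the members, 6.80% were called and 3.45% as higher. These were Cdc20 at 0.78 ± 0.17 (SE, adjusted p = 0.017), Cenpa at 0.49 ± 0.11 (SE, adjusted p = 0.025), Mad2l1 at 0.48 ± 0.11 (SE, adjusted p = 0.033) and Prc1 at 0.52 ± 0.13 (SE, adjusted p = 0.039). In fold terms Cdc20 was 1.72-fold and the other genes 1.39-fold to 1.43-fold higher with SP600125. SB203580 was above U0126 for 1 of 40, Racgap1, at 0.66 ± 0.15 (SE, adjusted p = 0.042) or 1.58-fold, a count near the background of 1.94% of all genes called and 0.714% called as higher, and 3.50% and 1.64% of those as bright. No member was called between SB203580 and SP600125, where 1.05% of genes were. There, limma's unadjusted p was under 0.05 for 1 member higher with SB203580 (6.49% of genes) and 2 lower (6.67%), and 4 were higher (15.1%) and 5 lower (14.3%) without overlap.

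Each of these calls held in all 3 replicates but lay near the threshold. For SP600125 against U0126 the replicate differences were 1.27, 0.43 and 0.65 for Cdc20, 0.67, 0.42 and 0.39 for Cenpa, 0.49, 0.47 and 0.46 for Mad2l1 and 0.73, 0.52 and 0.30 for Prc1. Racgap1 differed between SB203580 and U0126 by 0.64, 0.75 and 0.59. Mad2l1 and Racgap1 were thus even across replicates, and Cdc20 was largest in replicate 1, where the actin 3' to 5' ratio was also lowest for U0126 (1.62), and the part of this ratio in the result was not tested. Without SP600125 replicate 1, or without U0126 replicate 1, none of the 4 calls between SP600125 and U0126 was made. Without SP600125 replicate 2 the call of Cdc20 alone was left, without SP600125 replicate 3 that of Prc1 alone, and with any other sample left out 3 or 4 members were called. The Racgap1 call was made only when the sample left out was control replicate 1, control replicate 3 or SP600125 replicate 3, and without the intensity trend in limma no member was called in either comparison.

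Ccna2 was close to the threshold on its brightest probe set and past it on the other. The brightest gave 0.51 ± 0.13 for SB203580 against U0126 and 0.47 ± 0.13 for SP600125 against U0126 (SE, adjusted p = 0.057 and 0.054). The second, which read 1691, 2493 and 2532 under U0126 against 2286, 3655 and 3637 under SB203580 and 2673, 3713 and 3868 under SP600125, was called in both (0.50, adjusted p = 0.025, and 0.61, adjusted p = 0.0043), beside 0.533% and 1.44% of all probe sets called as higher. A second Cdc20 probe set gave 0.97 ± 0.19 (SE, adjusted p = 0.0083) for SP600125 against U0126. The second tested probe sets of Prc1, Racgap1 and Cenpa gave 0.32, 0.24 and 0.24 there and were not called, and Mad2l1 had no other. Racgap1 on its brightest probe set was called only for SB203580 against U0126. With each gene taken as the mean of its probe sets, that call was not made. Over 22 alternative settings this Racgap1 difference ran from 0.29 to 0.82 (limma adjusted p from 0.033 to 0.62).

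**Figure D3:**
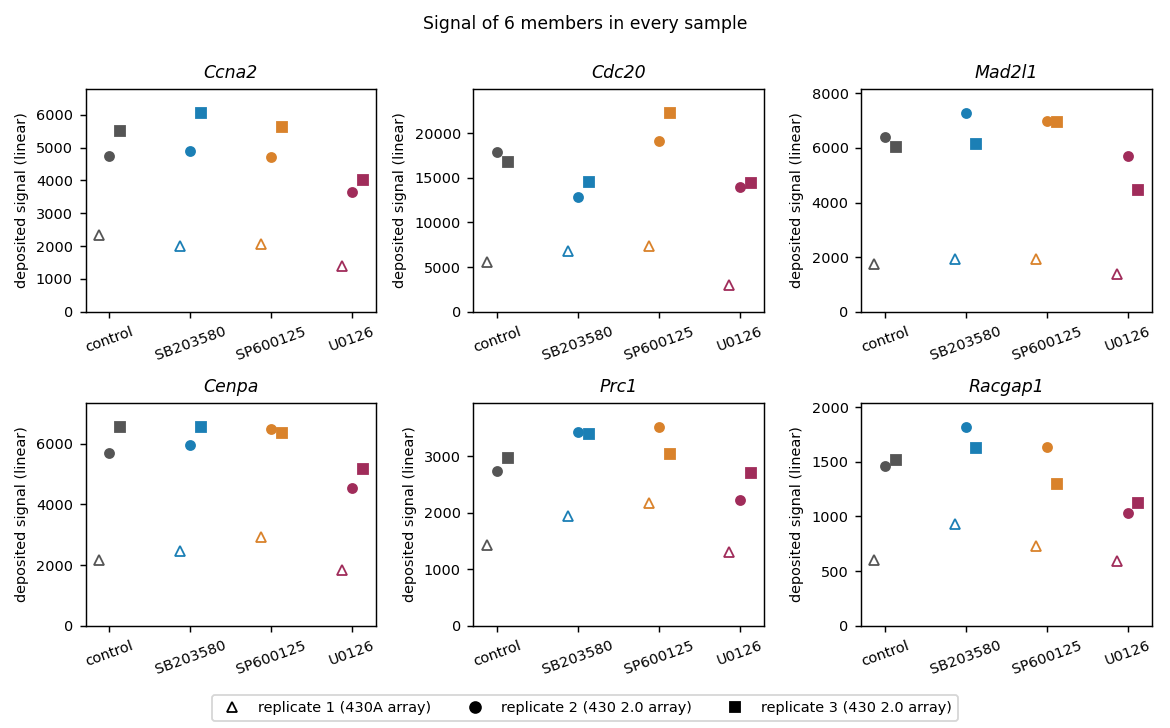
Deposited signal on a linear scale (vertical axis) in each of the 12 samples for the 6 members with a called probe set. Open triangles are replicate 1 on the 430A array, filled circles and squares replicates 2 and 3 on 430 2.0 arrays, and levels are compared only within an array type. U0126 samples were below the SB203580 and SP600125 samples of the same array type in every panel except Cdc20, where the SB203580 samples of replicates 2 and 3 overlap those of U0126.

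Over all 40 members the difference from U0126 leaned one way. The median was 0.27 for SB203580 and 0.29 for SP600125, beside -0.05 and -0.06 over all genes and 0.03 and 0.00 over the genes as bright as the members. In replicates 1, 2 and 3 it was 0.28, 0.29 and 0.17 for SB203580 and 0.33, 0.29 and 0.26 for SP600125. With SB203580, 34 of 40 members were above U0126, 23 without overlap on either array type (11.1% of all genes, 17.8% of those as bright), and none was below without overlap (16.4%). At an unadjusted p under 0.05, 18 were higher (6.63% of all genes, 11.96% of those as bright) and none lower (9.11%). With SP600125, 33 were above U0126, 24 without overlap (13.2% of all genes, 19.1% of those as bright), and 2 were below without overlap (18.2%). At an unadjusted p under 0.05, 21 were higher (8.74% of all genes, 14.1% of those as bright) and none lower (11.7%). Both comparisons share the U0126 samples. The 2 below were Cdc25b and Cdc25c, at -0.33 and -0.36.

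By role, the median difference between SP600125 and U0126 was 0.28 for the cyclins and kinases, 0.24 for the checkpoint group, 0.26 for kinetochore and passenger genes, 0.39 for motors and cytokinesis genes and 0.18 for the chromosome proteins, and that between SB203580 and U0126 was 0.15, 0.27, 0.14, 0.42 and 0.17. All 8 kinetochore and passenger genes were above U0126 with SB203580 and 6 under SP600125. Of the 11 motor and cytokinesis genes 10 were above U0126 with each. When each gene was taken as the mean of all its probe sets, dim ones included, the medians over the members fell to 0.13 for SB203580 and 0.09 for SP600125 against U0126 and to -0.04 for U0126 against control.

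Cell type markers also differed, against control and between inhibitors. Under U0126, Sox2 (0.87) and Fgf4 (1.30) of the 8 inner cell mass and epiblast markers rose, and Gata6 (-0.60) and Amn (-1.53) of the 10 primitive endoderm markers fell. Under SP600125, 8 of the 10 primitive endoderm markers fell (list median -1.35), as did Elf5 of the 10 trophectoderm markers, and under SB203580 Amn fell. Of all genes, 0.626% were called against control under SB203580, 0.896% under SP600125 and 0.65% under U0126. In the comparison of SP600125 with U0126, Sox2 (-1.05), Fgf4 (-1.48), Pdgfra (-0.77), Lama1 (-0.97) and Krt7 (-0.76) were lower with SP600125, and Nanog (0.92) and Gata6 (0.81) higher. With SB203580, Sox2, Fgf4, Eomes and Krt7 were lower and Gata6 higher than with U0126. The summed signal of the primitive endoderm markers in replicates 1, 2 and 3 was 13440, 20203 and 21205 in controls, 8227, 10809 and 13951 under U0126, 8307, 15470 and 17809 under SB203580 and 6981, 11733 and 11444 under SP600125, so it was lower than control in every treated sample. That of the inner cell mass markers was 8331, 24301 and 27823 in controls, 9021, 24349 and 27226 under SB203580, 8961, 24787 and 25755 under SP600125 and 12793, 28387 and 27692 under U0126. The summed trophectoderm signal was 43853, 105913 and 112225 in controls, 37902, 95193 and 98388 under SB203580, 44203, 106367 and 113446 under SP600125 and 45694, 108059 and 115830 under U0126. The part of these shifts in the mitotic genes was not tested.

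Further genes of mitosis outside the 41 were read from 5 lists chosen for their function. Of the 86 tested genes on these lists, only 1 passed against control, under U0126, where 0.65% of all genes were called. This was Ncaph, a subunit of condensin I, which compacts chromosomes. It read 1840, 3769 and 3354 in controls and 1143, 2451 and 2335 under U0126, a fall with a log2 change of -0.61 ± 0.13 (SE, adjusted p = 0.042). Anaphase-promoting complex genes (16) had medians of 0.18, 0.09 and -0.01 under SB203580, SP600125 and U0126, condensin and cohesin genes (15) 0.08, -0.04 and -0.10, and other kinetochore and checkpoint genes (21) 0.14, 0.12 and -0.11. Spindle, centrosome and cytokinesis genes (18 tested of 20) had 0.01, 0.11 and -0.20, and mitotic entry and transcription genes (16) -0.01, 0.01 and -0.20. The genes furthest from 0 by t on these lists, such as Smc4 (0.30) and Kif22 (0.51) with SB203580, Sgo2a (0.38), Anapc16 (0.38), Spc24 (-0.33) and Bora (-0.51) with SP600125 and Cenpk (-0.75), Cep55 (-0.40) and Anapc7 (0.41) with U0126, were not called.

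Between inhibitors, 4 of the 86 were above U0126 with SB203580 and 4 with SP600125 and none below. Of all genes, 0.714% and 1.92% were called as higher in these comparisons, and 1.94% and 4% in either direction. Of the genes as bright as the members, 1.64% and 3.45% were called as higher. None was called between SB203580 and SP600125. Spc25, a partner of Ndc80, read 900, 2546 and 2569 in controls, 1009, 2915 and 2900 under SB203580, 1031, 3016 and 2615 under SP600125 and 539, 1830 and 2140 under U0126. It was above U0126 by 0.66 ± 0.13 with SB203580 and 0.64 ± 0.13 with SP600125 (SE, adjusted p = 0.018 and 0.015). Cenpp, an inner kinetochore protein, was above U0126 by 0.70 and 0.59 and Melk, a kinase expressed in mitosis, by 0.74 and 0.78 in the same comparisons, all called. Fbxo5, or Emi1, an inhibitor of the anaphase-promoting complex, was higher with SB203580 than U0126 (0.57), and Ckap2, a spindle-associated protein, higher with SP600125 than U0126 (0.67).

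A few of the genes that hold the cycle back passed the test against control. Of 15 tested CDK inhibitors and G2 checkpoint genes, 1 fell with SB203580 (0.626% of all genes called), 2 rose with SP600125 (0.896%) and 1 rose with U0126 (0.65%). The medians over the 15 were 0.08, 0.51 and -0.21, and under SP600125 the replicate medians were 0.05, 0.86 and 0.58. Plk2, a Polo-like kinase induced by stress and by p53, read 89.4, 74.2 and 74 in controls and 347.7, 484.1 and 570.9 with SP600125, a rise of 2.36 ± 0.40 (SE, adjusted p = 0.0089). Btg2, an antiproliferative p53 target, read 580.9, 344.4 and 262.6 in controls and 944.4, 805.9 and 841.6 with SP600125, a rise of 1.17 ± 0.22 (SE, adjusted p = 0.018). Both stood clear of the controls in every replicate.

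Ccng2, an atypical cyclin of resting and arrested cells, fell with SB203580 with a log2 change of -1.20 ± 0.21 (SE, adjusted p = 0.017), from 383.4, 1253 and 1218 to 244.9, 446 and 422.3. Gadd45g, a growth arrest gene, rose with U0126 by 1.05 ± 0.20 (SE, adjusted p = 0.029). Cdkn1a, the CDK inhibitor p21, read 1702, 1166 and 1245 in controls, 631, 677 and 814 under SB203580, 1632, 3241 and 2825 under SP600125 and 1393, 1005 and 1057 under U0126. It was not called against control (-0.93 with SB203580 and 0.86 with SP600125, adjusted p = 0.099 and 0.14), and SP600125 was on both sides of control, above it on the 430 2.0 arrays alone.

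Between SB203580 and SP600125, Cdkn1a, Ccng1 (cyclin G1, a p53 target), Ccng2 and Plk2 were lower with SB203580, at log2 differences of -1.30 to -2.14, beside 1.05% of all genes called. SP600125 was above U0126 for 6 of the 15 (beside 1.92% of all genes called as higher), Plk2 (3.21), Btg2 (1.54), Ccng1 (1.53), Cdkn1a (1.10), Cdkn2c (0.94) and Ccng2 (0.94), and below it for Gadd45b (-1.05). Plk2 was dim under U0126, at 38.6, 64.4 and 20.7, its 430 2.0 values being below the median signals of those arrays (77.7 and 83). SB203580 was below U0126 for Ccng2 (-0.96).

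**Figure D4:**
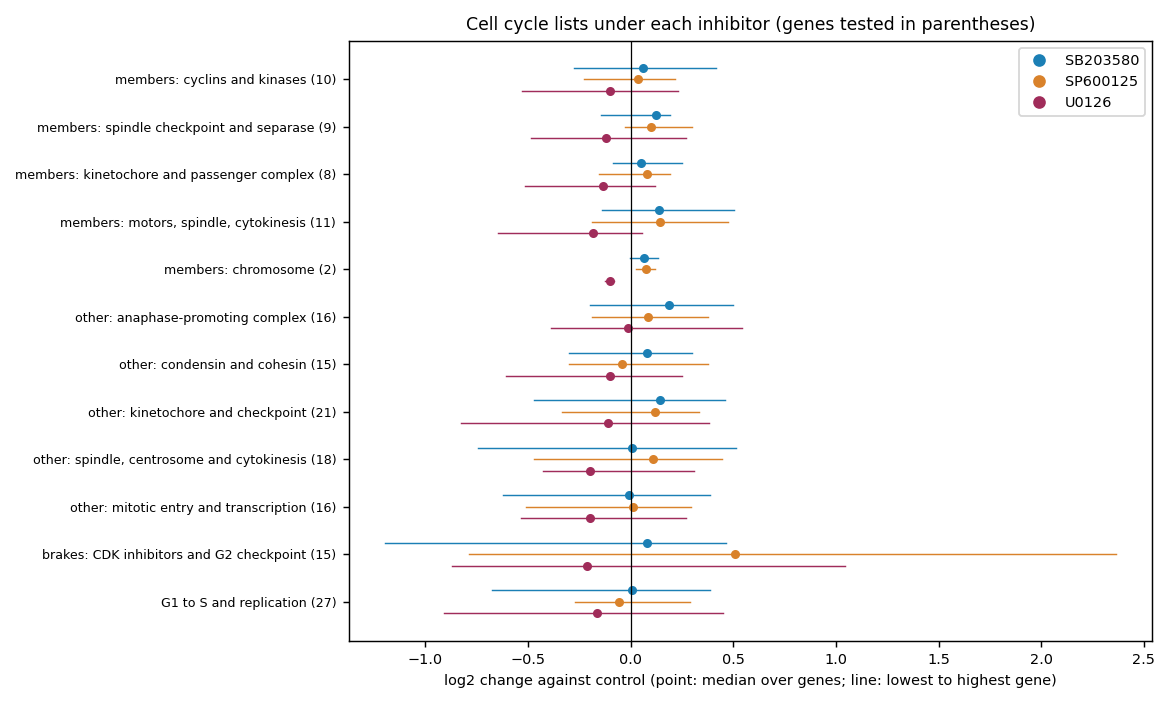
Log2 change against control (horizontal axis) for the member groups, 5 further mitotic lists, the brake genes and the G1 to S genes under each inhibitor. Points are medians over the genes of a list and lines run from its lowest to its highest gene, with the number of genes tested in parentheses. The member groups span -0.65 to 0.50, while the brake genes run from -1.20 to 2.36.

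Summed blood and immune markers were higher with SP600125 (1067, 2044 and 2062) than in controls (800, 947 and 1092). Most of the higher sum came from Laptm5, which rose by 1.33. It read 118, 697 and 661 in controls and 370, 1605 and 1576 with SP600125. All 4 tested markers of this list were above control, and Laptm5 alone was called. The summed cumulus and granulosa markers, of which 1 of 8 passed the filter, were 2030, 267 and 345 in controls and 1417, 308 and 349 under SP600125. Whether these signals have a part in the SP600125 values was not tested.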

How the data were processed

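Each of 12 samples gave 1 signal intensity per probe set on a linear scale. The authors scaled these deposited intensity values to a mean of 500 per array after trimming 2% from either end, which was checked on every array. Their software is not given in the sources used here. Replicate 1 of a group joins its 430A and 430B arrays by label. Analysis was on log2(signal + 12.6), the constant being the 20th percentile of signal on the 430 2.0 arrays. The 27022 probe sets with a 430 2.0 mean at or above the 40th percentile were tested, among them 80 of the 88 member probe sets.

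limma 3.58.1 in R 4.3.3 fitted group and array type with an intensity trend (residual degrees of freedom 7, prior 9.71 at the median), and two-sided p-values were adjusted over every probe set tested. The script was tested on simulated data. Array numbers limit the precision, since signal carries no counts. Groups were called apart when no samples overlapped within either array type. A replicate's difference is that sample minus the other group's mean within its array type.

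The members, lists and tests were chosen with earlier results of these data known. All members could be named. Values per sample are given for members with a called probe set and, per role and inhibitor, the 2 with the largest absolute moderated t against control. From other lists, called genes and the 1 with the largest t per inhibitor were eligible. Promoters are RefSeq's (GRCm38.p6). Samples with the same replicate number deviated together only weakly (correlations of 0.02 to 0.09 on the 430 2.0 arrays, all positive). No pairing was used in the main fit. With a replicate block the share of genes called was higher in every comparison, such as 0.79% against 0.65% for U0126 against control. Alternatives tried were 2 other added constants, no filter, 2 other normalizations, other choices of probe sets, a replicate block, the 430 2.0 arrays alone, no trend, and leaving out each sample.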

Additional observations from a re-analysis of the deposited data

How the results depend on the processing

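The counts of called members rest on few arrays and on the settings, while the direction of the members' medians held under all alternatives in the comparisons with U0126. The cause of these shifts was not tested. Without the filter on dim probe sets, 0 members were called for SB203580 against U0126 and 2 for SP600125 against U0126. With arrays centred on the median of their type, which moves the median of all genes under U0126 to -0.14, 3 members were called for U0126 against control (median -0.32), 6 for SB203580 against U0126 (median 0.42) and 14 for SP600125 against U0126 (median 0.48), and 241 probe sets were called for U0126 and 101 for SP600125 against control. Averaging all probe sets of each gene, 2 members (Ccna2 and Pttg1) were called for U0126 against control (median -0.035) and 2 for SB203580 against U0126 (median 0.13), and the median for SP600125 against U0126 was 0.0898. That setting turned Aurka with SP600125 to -0.25 and Kif2c and Top2a with U0126 to 0.16 and 0.13.

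With the replicate block, 1 member (Ccna2) was called for U0126 against control, 3 for SB203580 against U0126 and 5 for SP600125 against U0126, where the numbers are only shared, and 148 probe sets for U0126 against control. On the 430 2.0 arrays alone, 0 members were called for SB203580 against U0126, 1 for SP600125 against U0126 and 1 for SB203580 against SP600125, the SP600125 median against control was 0.0093, and 35, 82 and 56 probe sets were called for SB203580, SP600125 and U0126 against control and 116, 197 and 345 for SB203580 against SP600125, SB203580 against U0126 and SP600125 against U0126. There Aurkb with SB203580 was -0.027, Mki67 with SP600125 -0.038 and Cdc20 between SB203580 and U0126 -0.060, all uncalled and of the other sign. Without the intensity trend, 0 members were called in either U0126 pair, and 1, 8 and 2 probe sets against control and 23, 36 and 130 between inhibitors, in the same order.

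Leaving out each sample in turn gave 0 to 1 called members for SB203580 against U0126 and 0 to 4 for SP600125 against U0126. Called probe sets ran from 33 to 124, 76 to 193 and 53 to 119 for SB203580, SP600125 and U0126 against control, and from 99 to 258, 145 to 357 and 364 to 792 between inhibitors. The medians against control ran from 0.030 to 0.14 for SB203580 and 0.023 to 0.14 for SP600125, both lowest without control replicate 1, and Mki67, near 0, from -0.12 to 0.19, -0.091 to 0.21 and -0.29 to 0.060.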

Other observations

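Genes of the passage from G1 to S and of DNA replication, a list of 28 of which 27 were tested, had median log2 changes of 0.01 under SB203580, -0.06 under SP600125 and -0.17 under U0126, beside 0.01, -0.00 and 0.05 over all genes. With U0126, 22 of the 27 were below control, beside 43.6% of all genes and 52.4% of those as bright as the members. By the test, 1 of 27 passed, beside 0.65% of all genes. This was Rrm1, the large subunit of ribonucleotide reductase, which makes the deoxynucleotides for replication. It read 3810, 5485 and 5204 in controls and 2754, 3210 and 3330 under U0126, a log2 change of -0.63 ± 0.11 (SE, adjusted p = 0.011). All 3 U0126 samples were the lowest of their array type.

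Between inhibitors, SP600125 was above U0126 for Rrm1 (0.73), Rrm2, the small subunit of the same enzyme (0.59), and Cdc6, a loader of the replicative helicase (0.53). Of all genes, 1.92% were called as higher in that comparison. SB203580 was above U0126 for Cdc6 (0.72) and for Pcna, the polymerase clamp (0.46), where 0.714% of all genes were called as higher. Cdc6 read 1370, 3179 and 3361 in controls, 1584, 3444 and 3906 under SB203580, 1458, 3062 and 3206 under SP600125 and 1020, 2534 and 1809 under U0126. Mcm5, a subunit of that helicase, had the largest t of the list with SP600125 against control, at -0.18 ± 0.08 (SE), and was not called.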
